A study of Mus musculus with 15 samples.

Results

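The microRNAs (miRNAs) from miR-17 to miR-92a form a cluster cut from a common primary transcript, and here it comprised 13 of the 584 miRNA assays measured. Its members were taken by name, as the assays called miR-17, miR-18a, miR-19a, miR-19b, miR-20a or miR-92a with any arm suffix. Of these, 6 (mmu-miR-17, mmu-miR-18a, mmu-miR-19a, mmu-miR-19b, mmu-miR-20a and mmu-miR-92a) read the guide strands, the arms that mostly end up in the silencing complex, and 7 read other arms, including 2 rat sequences. The cluster was selected on the ΔCt values of untreated αTC1-6 and βTC1, in which miR-19b was already known to differ, so every value of αTC1-6 against βTC1 below is a description and carries no test.

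The assays were run as real-time PCR on TaqMan low density arrays, over 15 samples, 3 in each of 5 conditions. αTC1-6 is a mouse glucagonoma line and βTC1 a mouse insulinoma line, used as stand-ins for pancreatic α and β cells; both are tumour-derived, and each cell type was represented by 1 line. The groups were untreated αTC1-6 at 24 h and at 48 h, αTC1-6 exposed for 24 h or 48 h to a cytokine mix (50 IU/ml of IL-1β with 1000 IU/ml each of IFN-γ and TNF-α), and untreated βTC1 at 24 h. Replicates are described in the study's methods as biologically independent.

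The readout of a well is its Ct, the number of PCR cycles needed for the fluorescence to pass a threshold, and a low Ct stands for much miRNA. The deposited ΔCt is the distance of that Ct from the one of miR-26a measured alongside, and a well with no Ct was set to 40. The Ct of miR-26a itself lay between 16.97 and 18.98 in the 15 samples, and 214 to 337 assays of the 375 on card A and 174 to 191 of the 209 on card B had a Ct in a sample. In the untreated and treated αTC1-6 of 48 h the number on card A was 304 to 337, above the 214 to 276 of all samples of 24 h. The islet miRNA miR-375 was strong in both lines, with a mean ΔCt of -3.17 in untreated αTC1-6 of 24 h and -4.24 in βTC1. MiR-7a, also listed as an islet miRNA, came later than the reference in both. Its mean ΔCt was 2.55 in these αTC1-6 samples and 3.79 in βTC1, the other direction, and the samples of the lines overlapped.

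As background, the cluster is transcribed as a unit whose hairpins are then processed into separate mature miRNAs, so that the level of a member depends on processing and decay as well as on transcription. It is known as an oncogenic locus induced by MYC, and it promotes proliferation and restrains the pro-apoptotic BIM. A paralogous copy on the X chromosome, miR-106a-363, carries a further hairpin each for miR-19b and miR-92a, and a smaller copy is miR-106b-25.

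The 6 guide strands are shown because their shared letters decide what the assays have to tell apart. All matched an entry of RefSeq (build GRCm38.p6). Capitals mark the seed, bases 2 to 8, which pairs with target RNAs, and the order is that of the hairpins along the transcript.
miR-17: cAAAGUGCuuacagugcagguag
miR-18a: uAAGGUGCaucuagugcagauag
miR-19a: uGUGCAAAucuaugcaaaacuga
miR-20a: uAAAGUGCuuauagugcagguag
miR-19b: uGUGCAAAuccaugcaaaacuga
miR-92a: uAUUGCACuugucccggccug
MiR-17 and miR-20a share the seed AAAGUGC, miR-19a and miR-19b share GUGCAAA, and miR-18a (AAGGUGC) and miR-92a (AUUGCAC) each have another. Counted from 1 at the 5′ end, miR-19a and miR-19b differ at 1 base, U11C, and miR-17 and miR-20a at 2, C1U and C12U.

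The hairpins lie on the plus strand of chromosome 14 within 836 bases. In GRCm38.p6 they are Mir17 at chr14:115043671-115043754, Mir18 at chr14:115043851-115043946, Mir19a at chr14:115044000-115044081, Mir20a at chr14:115044157-115044263, Mir19b-1 at chr14:115044305-115044391 and Mir92-1 at chr14:115044427-115044506. RefSeq annotates the host gene Mir17hg, a long noncoding RNA, at chr14:115044390-115046728, so that of the 6 hairpins Mir92-1 is the one that lies wholly inside the annotated gene. The X-linked copy holds the nearest relative of miR-17, printed to show how little separates them.
miR-106a: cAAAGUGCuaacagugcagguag
MiR-17 and miR-106a differ at U10A alone. The mature miR-19b and miR-92a are identical whether they come from chromosome 14 or from Mir19b-2 (chrX:52741983-52742066) and Mir92-2 (chrX:52741838-52741928), so their assays read the sum of both loci.

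The first question was how the guide strands stood in the 2 untreated lines, and whether miR-19b departed from its cluster mates. All 6 guide strands were lower in αTC1-6 than in βTC1 at 24 h, with every αTC1-6 sample below every βTC1 sample in the deposited normalized values. The distances were far from equal. The difference was 2.02 and 4.13 cycles for miR-92a and miR-17, 12.26 cycles for miR-19b, and larger still, but set by wells with no Ct, for miR-18a, miR-19a and miR-20a. Of the 13 members, 12 had a Ct in enough samples to enter the comparison, and in 6 all αTC1-6 samples lay below all βTC1 samples, against 28.4% of the 483 assays compared; the choice of the members used this contrast, so nothing is read from that count.

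MiR-19b, known as a main oncogenic member of the cluster, had a ΔCt of 12.01, 12.40 and 11.34 in untreated αTC1-6 of 24 h and of 0.30, -0.75 and -0.60 in βTC1. Its Ct was thus within 1 cycle of that of the reference in βTC1 and late, 29.0 to 31.0, in αTC1-6. The mean level (−ΔCt) was -11.92 ± 0.53 (SD, n = 3) in αTC1-6 and 0.35 ± 0.57 in βTC1, a log2 difference of -12.26, or 4920.05-fold if each cycle doubles the product. Among the 326 assays with a Ct in all 6 of these samples, this was the lowest difference of all, while miR-17 ranked 27 and miR-92a 57 from the lowest. Assays with a well lacking a Ct were outside this ranking, among them miR-18a, miR-19a and miR-20a, whose differences were lower still. MiR-19b was chosen with this contrast known, so its rank is a description.

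MiR-17, the first guide strand of the cluster and a repressor of the cell-cycle inhibitor p21, had a ΔCt of 5.05, 5.60 and 5.35 in αTC1-6 and of 2.16, 0.12 and 1.32 in βTC1. Its log2 difference was -4.13, or 17.6-fold. MiR-92a, known to restrain blood vessel growth, had a ΔCt of 3.98, 4.41 and 4.79 against 2.57, 2.15 and 2.41. The log2 difference of -2.02 (4.05-fold) exceeded the SD of either line, which was 0.41 in αTC1-6 and 0.21 in βTC1. These 2 members and miR-19b are the guide strands with a Ct in all 15 samples of both deposited tables, and their line differences are the same in both.

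The other 3 guide strands were well measured in βTC1 and poorly in αTC1-6. MiR-20a, which shares its seed with miR-17, had a ΔCt of 2.57, 0.23 and 1.32 in βTC1. In αTC1-6 it had a ΔCt of 11.03 in replicate 1 and no Ct in replicates 2 and 3, which gives a log2 difference of -17.23 with those wells at 40. In the non-normalized table the same 2 wells hold a Ct, 27.2 and 30.0, and the difference becomes -9.62 (SE 1.03), again with no overlap.

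MiR-19a, the seed partner of miR-19b, had a ΔCt of 4.59, 3.24 and 3.92 in βTC1. In αTC1-6 replicate 1 read 16.89 and the others had no Ct, for a log2 difference of -16.64. The non-normalized table holds a Ct of 17.8 for replicate 3, far from the 35.9 of replicate 1, and with it the difference was -9.25 (SE 6.71) and the lines overlapped. MiR-18a had a ΔCt of 7.20, 5.20 and 6.34 in βTC1 and no Ct in the 3 αTC1-6 samples, a difference of -15.68. Its 3 αTC1-6 wells hold a Ct of 21.7, 22.2 and 30.7 in the non-normalized table, which reduces the difference to -0.52 (SE 3.23). There replicates 1 and 2 lay above all βTC1 samples and replicate 3 below them. For miR-18a and miR-19a, then, the deposited tables disagree on whether the lines overlap, and for miR-20a on how far apart they lie.

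**Figure D1:**
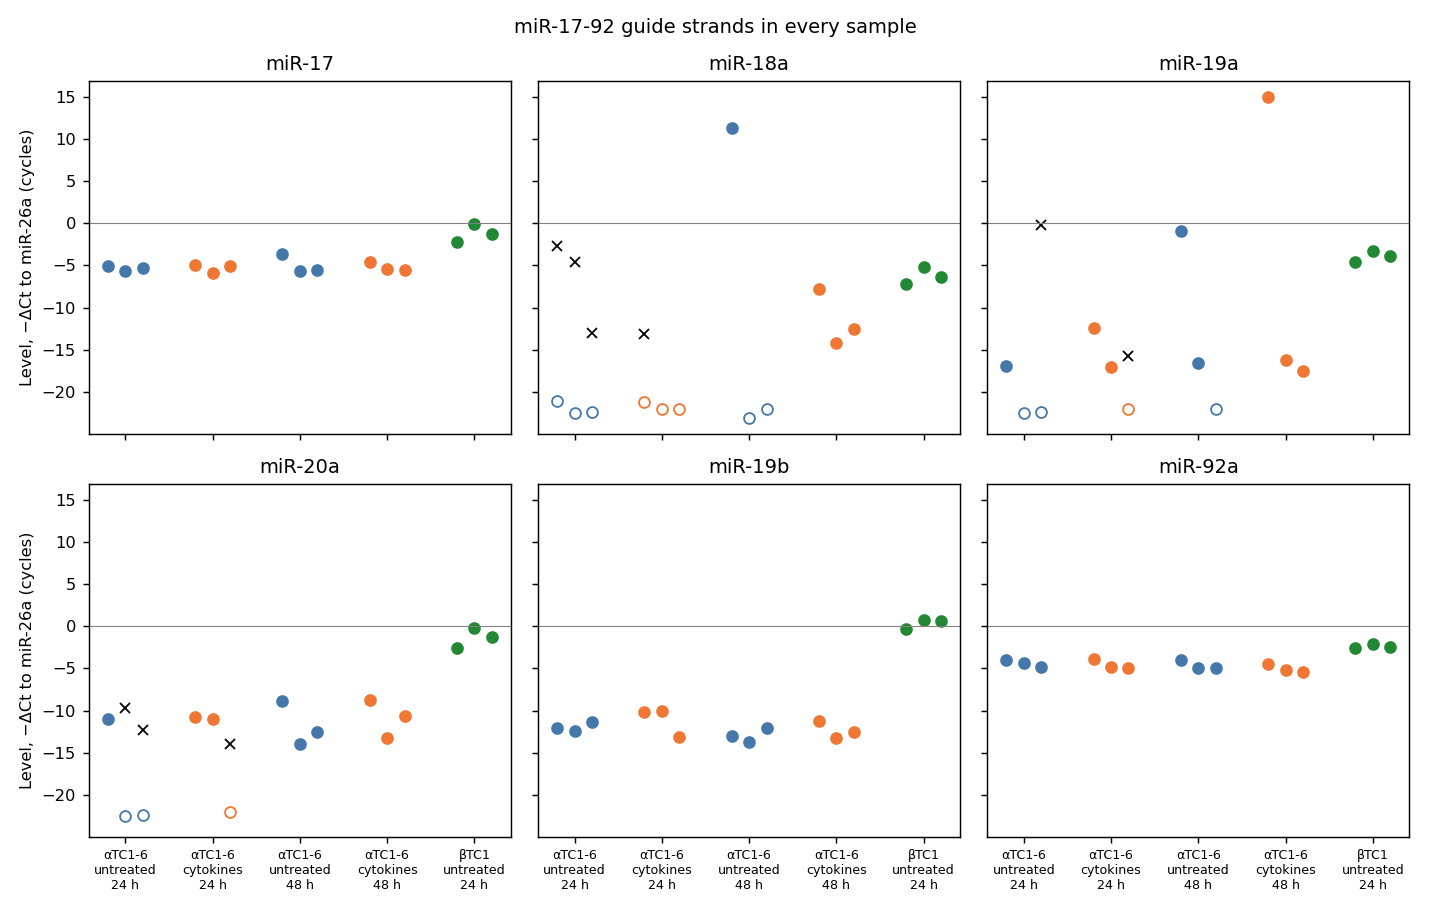
Level of each guide strand (−ΔCt to miR-26a, in cycles; higher means more miRNA) in the 3 samples of each condition, with 1 panel per miRNA. Filled circles are wells with a Ct, open circles wells with no Ct set to 40, and crosses the value of the same well in the non-normalized table where only that table holds a Ct. MiR-17, miR-19b and miR-92a are filled in all 15 samples and highest in βTC1, whereas miR-18a, miR-19a and miR-20a scatter in αTC1-6.

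Whether miR-19b stands apart from the cluster therefore depended on which mates it was set against. Against the mean of all 5 mates, its offset (−ΔCt of miR-19b minus that mean) was 2.25 ± 2.36 in αTC1-6 and 3.37 ± 0.38 in βTC1 (SD, n = 3), and the change of -1.13 was smaller than the pooled SD of 1.69. Against miR-17 and miR-92a, the mates with a Ct everywhere, the offset was -7.05 ± 0.68 in αTC1-6 and 2.14 ± 0.30 in βTC1, a change of -9.19. Relative to miR-18a, miR-19a and miR-20a the sign turned, with 8.44 ± 3.61 against 4.19 ± 0.48 and a change of 4.25 (pooled SD 2.58). That last value carries the wells set to 40. With the non-normalized table the change against the same 3 mates was -5.80 (pooled SD 1.02), so that the sign turned back, and the change against all 5 mates was -7.15 with a pooled SD of 0.53. In that table miR-18a ran from a ΔCt of 2.67 to 13.02 in untreated αTC1-6 of 24 h. MiR-19a ran from 0.16 to 22.45, the latter a well with no Ct set to 40. The narrow SD thus does not stand for well-measured mates.

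**Figure D2:**
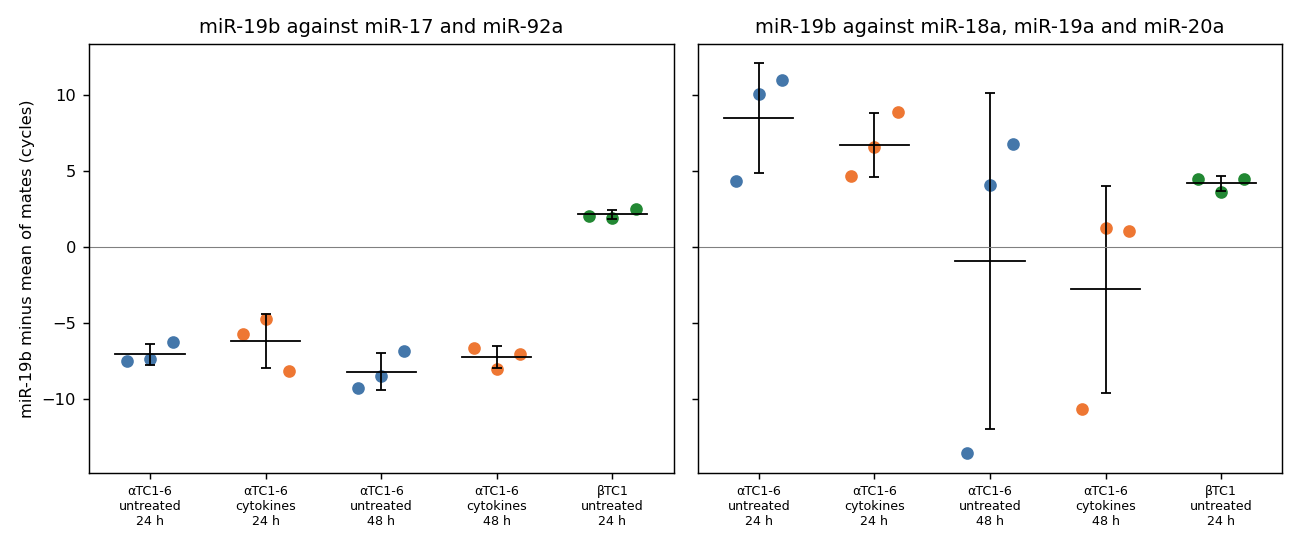
Offset of miR-19b from the mean of its cluster mates in each sample (−ΔCt, in cycles), against miR-17 and miR-92a on the left and against miR-18a, miR-19a and miR-20a on the right, with the mean (line) and SD (bars) of 3 samples per condition. Only differences between conditions can be read, since assays differ in efficiency. On the left all 12 αTC1-6 samples lie between -9.28 and -4.72 and the βTC1 samples between 1.88 and 2.47, and on the right the untreated αTC1-6 samples of both times overlap those of βTC1.

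The 48 h controls gave the same picture for the well-measured members. Untreated αTC1-6 of 48 h had a ΔCt of 13.05, 13.76 and 12.10 for miR-19b, 13.32 cycles below βTC1. The difference was -3.71 for miR-17 and -2.26 for miR-92a, and that of miR-20a, now with a Ct in all samples, was -10.41 (SE 1.65). MiR-19a and miR-18a overlapped βTC1 here. At 48 h 7 of the 11 members compared lay wholly below βTC1, against 24.7% of 523 assays, and 4 of the 7 were guide strands. The βTC1 samples are those used in choosing the members, so nothing is read from this count. Its other arms were miR-17*, miR-18a* and the mouse miR-20a*, with a Ct in 2, 2 and 0 of the αTC1-6 samples. In the non-normalized table miR-17* and miR-18a* overlapped βTC1. The αTC1-6 and βTC1 groups were both untreated, and time in culture, 48 h against 24 h, differs between the lines in this comparison.

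The acinar miRNAs miR-216a, miR-216b and miR-217 moved with the line. They had a Ct in all 3 βTC1 samples, with mean ΔCt values of 7.38, 4.48 and 7.27, and in 0 of the 3 untreated αTC1-6 samples of 24 h. The leukocyte marker miR-142-3p had a mean ΔCt of 12.28 in βTC1 and 15.23 in αTC1-6, and miR-223 one of 14.05 and 14.46, while miR-142-5p stood at 19.45 and 19.60 with a Ct in 1 sample of each line. The muscle miRNA miR-1 and the liver miRNA miR-122 had a Ct in 2 of 3 βTC1 samples and in 0 of these αTC1-6 samples. The remaining βTC1 value of miR-1, and 1 of these αTC1-6 values of miR-122, were blank. MiR-133a had a mean ΔCt of 11.41 in βTC1 and 17.24 in αTC1-6, miR-206 one of 12.51 and 13.71, and the erythroid miR-451 one of 16.76 and 17.71. In untreated αTC1-6 of 48 h miR-216b had a Ct in all 3 samples, with a mean ΔCt of 15.41. The part of other cell types in the line differences was not tested.

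Relatives of the cluster did not share a common distance. From the X-linked copy, miR-106a had a ΔCt of 4.17, 5.39 and 4.92 in αTC1-6 and 2.19, 0.21 and 1.30 in βTC1, a log2 difference of -3.59 close to that of miR-17. Cross-reading between the miR-17 and miR-106a assays, whose targets differ at 1 base, was not tested. MiR-20b was lower in αTC1-6 by both of its assays, by 12.84 cycles for the mouse assay, with a Ct in 1 of the 3 αTC1-6 samples, and by 4.99 cycles (SE 0.70) for the rat assay, with a Ct in all 6. MiR-363, the last hairpin of that copy, differed by 2.95 (SE 3.44) toward αTC1-6 with 1 βTC1 well at 40, and by 0.10 (SE 0.62) in the non-normalized table. MiR-18b had a Ct in 1 of these 6 samples, and in the non-normalized table in the 3 βTC1 samples.

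By contrast, the guide strands of the chromosome 5 copy showed small differences between the lines. The log2 differences were -0.37 (SE 0.30) for miR-106b, -0.21 (SE 0.34) for miR-93 and -0.01 (SE 0.45) for miR-25, and the samples of the lines overlapped in each. Of its other arms, miR-106b* differed by -0.46 (SE 0.38) and miR-93* by -0.50 (SE 0.35), whereas the rat assay of miR-25* differed by 5.73 (SE 4.23) toward αTC1-6, with overlap in all of them. MiR-106b and miR-93 carry the seed of miR-17, and miR-25 that of miR-92a. MiR-32, another miRNA with the miR-92a seed, was lower in αTC1-6 by 1.66 cycles without overlap. Of the 14 assays of relatives compared, 4 lay wholly below βTC1 (miR-106a, both miR-20b assays and miR-32), which is near the 28.4% of all assays compared.

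**Figure D3:**
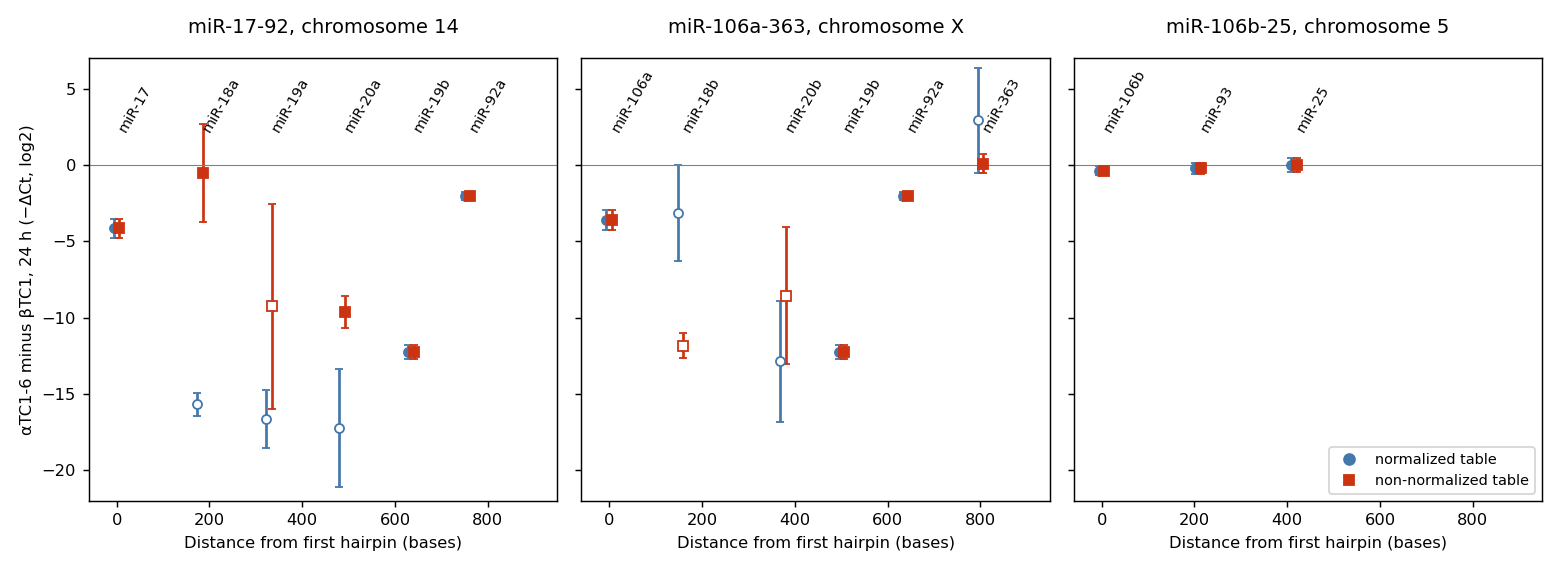
Log2 difference of untreated αTC1-6 from βTC1 at 24 h (−ΔCt, bars SE from 3 and 3 samples) against the distance of each hairpin from the first of its cluster, in bases. Circles are the normalized and squares the non-normalized table, and symbols are open where a sample had no Ct. MiR-19b and miR-92a are drawn in both copies that can give rise to them; miR-17, miR-106a and miR-92a sit between -4.13 and -2.02, miR-19b at -12.26, and the 3 guide strands of miR-106b-25 near 0.

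The second question was whether cytokines moved the cluster in αTC1-6. No member passed the threshold at 24 h (0 of 10 tested by limma, against 0.224% of all 446 assays), and the 5 guide strands tested had log2 differences from -0.19 to 4.02. MiR-19b had a ΔCt of 10.11, 10.08 and 13.16 after treatment, so that 2 treated samples lay above all 3 controls and 1 below them. Its difference was 0.80 (SE 0.96, limma adjusted p = 0.961).

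MiR-17 read 4.91, 5.87 and 5.03 after 24 h of cytokines and miR-92a 3.91, 4.86 and 4.99, both overlapping the controls. Their differences were 0.06 (SE 0.41, limma adjusted p = 0.987) and -0.19 (SE 0.45, limma adjusted p = 0.961). MiR-20a (4.02, SE 4.59) and miR-19a (3.41, SE 2.89) had the widest errors, in groups where treated and control wells with and without a Ct were mixed, and the adjusted p of both by limma was 0.961. In the non-normalized table these differences were -0.16 and -1.88. MiR-18a had no Ct in the 6 samples and was not tested.

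At 48 h the result was the same, with 0 of 11 members past the limma threshold and a background of 0.562% of 534 assays. MiR-19b read 11.17, 13.29 and 12.53 in treated cells, within reach of its controls, for a difference of 0.64 (SE 0.74, limma adjusted p = 0.829). The difference was -0.26 (SE 0.68) for miR-17, with treated samples at 4.63, 5.36 and 5.53 and controls at 3.60, 5.63 and 5.499. For miR-92a it was -0.38 (SE 0.46), with 4.49, 5.14 and 5.43 against 3.95, 4.97 and 4.98. MiR-20a read 8.76, 13.26 and 10.63 against 8.89, 13.98 and 12.47, a difference of 0.89 (SE 1.79).

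MiR-18a and miR-19a at 48 h depended on a few wells. MiR-18a had a Ct of 7.69 in untreated replicate 1 and none in the other 2 controls, whereas all 3 treated samples had a Ct, with a ΔCt of 7.82, 14.23 and 12.51. Its difference was -0.25 (SE 10.15), and 11.02 without wells under a Ct of 12. MiR-19a had a Ct of 3.54 in treated replicate 1 and a ΔCt of 16.17 and 17.51 in the others, against 0.92 and 16.51 and a well with no Ct in the controls. The difference of 6.92 (SE 10.95) became -3.68 without the treated well of 3.54, and 13.04 without untreated replicate 1 (ΔCt 0.92). Of the 90 guide strand wells, 2 were under 12 cycles, or 2.22%, against 0.563% of all miRNA wells.

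Time in culture was compared in untreated αTC1-6, 48 h minus 24 h, where 0 of 9 members passed by limma and 5.92% of 490 assays did; the groups overlapped for all 9, against 14.7% of assays without overlap. MiR-19b had a difference of -1.06 (SE 0.57, limma adjusted p = 0.720), miR-17 of 0.42 (SE 0.65) and miR-92a of -0.24 (SE 0.45). MiR-20a differed by 6.82 (SE 3.53, limma adjusted p = 0.690) and miR-19a by 7.39 (SE 5.69, limma adjusted p = 0.918), both with wells at 40 at 24 h. Without untreated replicate 1 of 24 h, the only one of that group with a Ct for miR-20a, its difference was 10.60 with a limma adjusted p of 0.0270, and with the non-normalized table it was -0.78. The cytokine effect of 48 h minus that of 24 h was past the threshold for 0 of 9 members by limma, against 0.21% of 477 assays, and stood at -0.16 (SE 1.26) for miR-19b.

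**Figure D4:**
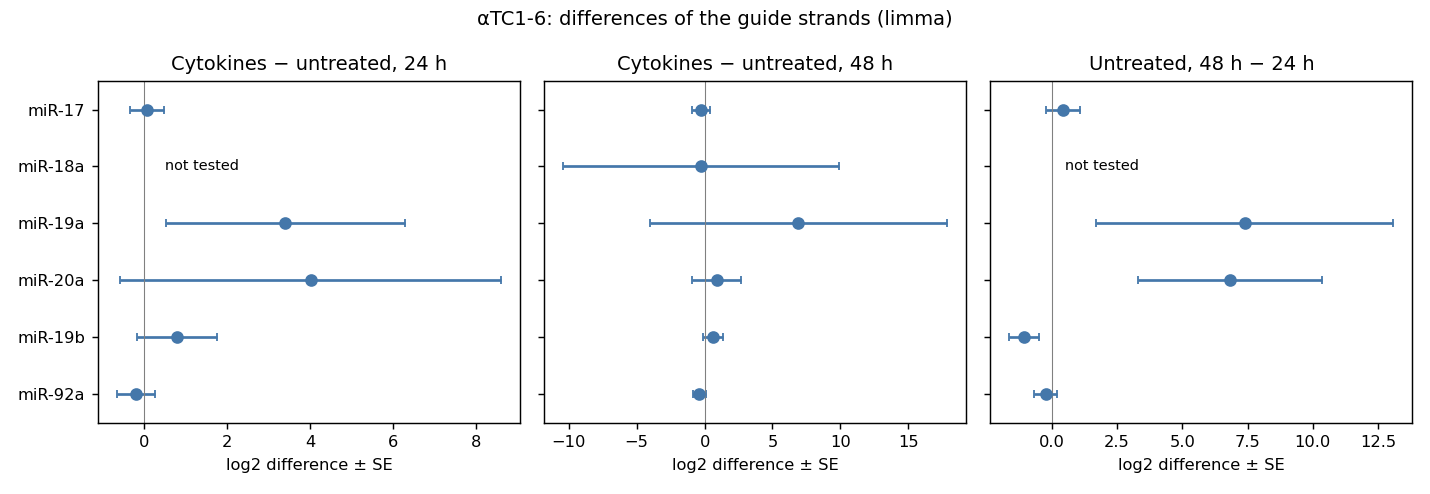
Log2 differences (−ΔCt) of the guide strands in αTC1-6 with SE from limma, for cytokines against untreated cells at 24 h and 48 h and for untreated cells of 48 h against 24 h (3 samples per group; the x axes differ). MiR-17, miR-19b and miR-92a lie within -1.06 and 0.80, and miR-18a, miR-19a and miR-20a carry errors of up to 10.95.

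The 4 αTC1-6 conditions overlapped pairwise for miR-17, miR-19b and miR-92a, and all 12 αTC1-6 samples were below the 3 βTC1 samples in each. Over these 12 samples the ΔCt of miR-19b had a median of 12.25 and ran from 10.08 to 13.76, that of miR-17 from 3.60 to 5.87 (median 5.36) and that of miR-92a from 3.91 to 5.43 (median 4.83). The offset of miR-19b from miR-17 and miR-92a changed by 0.86 with cytokines at 24 h, by 0.97 at 48 h and by -1.15 with time, against pooled SDs of 1.34, 1.01 and 0.99.

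The other arms, which are usually degraded, were harder to read. MiR-92a*, the other strand of the miR-92a hairpin, had a Ct in 13 of 15 samples. Its ΔCt was 13.73, 10.96 and 16.75 in untreated αTC1-6 of 24 h, and 10.26, 10.04 and 10.54 after cytokines. All treated samples were thus above the controls, and it was the only member of the 10 tested whose groups did not overlap, against 13.5% of all assays. Its difference of 3.53 (SE 1.47) had an unadjusted p of 0.0582 and an adjusted p of 0.797 by limma.

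At 48 h the values of miR-92a* lay the other way, with 1 treated sample at 10.02 and 2 with no Ct, against 12.67, 10.33 and 10.12 in the controls. The difference was -6.99 (SE 3.64, limma adjusted p = 0.374), and 1.02 with wells lacking a Ct left out. The change of its cytokine effect between the times, -10.52 (SE 4.10), had an unadjusted p of 0.0295 and an adjusted p of 0.526 by limma, and was past the threshold without treated replicate 2 of 48 h. In βTC1 its ΔCt of 16.73, 8.05 and 13.48 overlapped that of untreated αTC1-6.

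MiR-17*, miR-18a*, miR-19a* and miR-20a* were each read in 2 wells of card B. In βTC1 both wells had a Ct in 11 of 12 pairs, with a median distance of 0.192 cycles. In αTC1-6 only 1 of the wells had a Ct in 23 of 47 pairs, and where both had one the median distance was 3.96 cycles; over all assays in 2 wells, 11.6% of αTC1-6 pairs had 1 Ct and the median distance was 0.297. βTC1 gave narrow values for miR-20a* (ΔCt 10.44, 8.22 and 9.25), miR-18a* (10.01, 7.11 and 9.40) and miR-17* (10.20, 8.92 and 11.03). In untreated αTC1-6 of 24 h the same arms ran from 3.47 to 21.02 for miR-20a*, from 6.69 to 22.31 for miR-18a* and from 6.01 to 22.45 for miR-17*, overlapping βTC1 in each. For the mouse miR-20a* assay the line difference of -2.87 (SE 5.11) turned to 6.42 (SE 1.40) in the non-normalized table, where all αTC1-6 samples lay above all βTC1 samples.

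MiR-19a* had a Ct in all 15 samples on averaging its wells, but replicate 2 of untreated αTC1-6 at 24 h held a Ct of 14.95 in 1 well and 31.9 in the other. At 48 h its treated samples (ΔCt 19.96, 18.83 and 19.12) lay below the controls (15.63, 14.53 and 5.49), the 1 member of 11 without overlap against 19.3% of all assays. The difference was -7.42 (SE 2.88), with an unadjusted p of 0.0486 and an adjusted p of 0.322 by limma. In each of these treated samples 1 of the 2 wells had no Ct and entered the average at 40. The controls had a Ct in both wells, but those of replicate 3 were 14.76 and 32.10. The rat assays were mostly silent, with a Ct in 4 of 15 samples for miR-17-3p and in 4 for the rat miR-20a*, some of them under 12 cycles, such as a Ct of 4.50 in βTC1 replicate 1 for the latter.

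The assays whose levels ran most like those of miR-19b over the 15 samples, of 274 with a Ct in every sample, were miR-139-5p (Pearson's r = 0.970), miR-218 (0.968), miR-378 (0.964), miR-365 (0.964) and miR-676* (0.960). Its cluster mates miR-17 and miR-92a, which were outside that ranking, had 0.908 and 0.913. For miR-17 the nearest were miR-129-3p (0.966), miR-106a (0.959), miR-31 (0.944), miR-676* (0.942) and miR-218 (0.942). All these points share the step between 12 αTC1-6 and 3 βTC1 samples and the common reference. Within the 12 αTC1-6 samples r between miR-19b and miR-17 was -0.11 and between miR-19b and miR-92a 0.33, whereas miR-17 and miR-92a had 0.62 and miR-17 and miR-106a 0.51.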

How the data were processed

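Total RNA of 15 samples was assayed on TaqMan rodent cards A and B after reverse transcription and preamplification. The authors deposited a table of Ct values that were not normalized, and a table of ΔCt, a log2 scale in which the Ct of miR-26a was taken off, beside relative quantities, the ratio 2 to the power of -ΔCt. Undetermined wells of the deposited ΔCt carry a Ct of 40. The last deposited table holds the authors' own fold changes and was not used. How Ct values were set to undetermined is not given in the sources used here.

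Groups were taken from the labels. Values of 584 miRNA assays were -ΔCt, with duplicate wells averaged and 7 control assays left out. Each contrast was fitted over all assays with limma 3.58.1 (lmFit, eBayes) in R 4.3.3, two-sided, with Benjamini-Hochberg adjustment within each card at 0.05, for assays with a Ct in at least 3 of the 6 samples (at least as many with a Ct as without in the 12-sample fit). The fit was tested on simulated data. Summaries were made in Python 3.11.15. An exact permutation test of 3 against 3 samples cannot go below p = 0.1. The number of arrays limits the precision.

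The members, the lists of relatives and markers, and the tests were chosen with earlier results of these data known. Named miRNAs were all members, the listed paralogs and seed relatives, the markers, miR-26a, and the 5 assays most like miR-19b and miR-17 by Pearson's r. Same-numbered samples deviated together in the cytokine comparisons (r from 0.338 to 0.539 at 24 h and from 0.528 to 0.621 at 48 h), so the numbers pair them there. They did not do so by the limit of 0.1 in every pair for the lines (0.098 to 0.282) or over time (-0.03 to 0.087). The limma fits above did not use the pairing of the cytokine samples, which entered only in the alternative with replicate number as a block. Alternatives were other references, centring, filters, Ct ceilings, treatments of undetermined wells, the non-normalized table, replicate number as a block and leaving out each replicate.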

Additional observations from a re-analysis of the deposited data

Results flagged for a closer look

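In the samples of 24 h, 9 of 54 guide strand wells were undetermined in the normalized table although the non-normalized one holds their Ct, a signal outside the values used for the comparisons. They are miR-18a in all 3 untreated αTC1-6 and 1 treated sample, miR-19a in 1 untreated and 1 treated sample, and miR-20a in 2 untreated and 1 treated sample. The share was 16.7%, against 10.9% of all miRNA wells in the same samples, and in the samples of 48 h it was 0 of 36 wells against 1.45%. No βTC1 guide strand well was among them.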

How the results depend on the processing

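With a replicate block 0 members passed in each of the 4 tested contrasts, so the block changed no call. Elsewhere the count of members past the threshold rose to 1 over time with the non-normalized table (miR-20a*). Leaving out a replicate gave 0 to 1 members over time (miR-20a without untreated replicate 1 of 24 h) and 0 to 1 for the change of the cytokine effect (miR-92a* without treated replicate 2 of 48 h).

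The line change of the miR-19b offset from its mates, -1.13, moved to -7.15 with the non-normalized table, -8.85 with undetermined wells missing, -3.52 with Ct capped at 35, 3.96 with the median of the mates and -7.19 with the 48 h controls. With mates chosen after seeing the data it was -9.19 (miR-17 and miR-92a) and 4.25 (the other 3), the latter -5.80 with the non-normalized table. It ran from -2.04 to 0.20 on leaving out a replicate. At 24 h the cytokine change of that offset, -0.70, moved to 3.69 with the non-normalized table, 1.92 with undetermined wells missing and -3.22 with the median of the mates, and from -2.03 to 0.21 without a replicate. At 48 h it ran from -4.75 to 1.83. Over time the change of -6.07 moved to -0.040 with the non-normalized table and from -8.63 to -2.06 without a replicate. The cause of these moves was not tested. With undetermined wells missing, the mean of the mates held only those with a Ct in a sample. These were miR-17 and miR-92a in replicates 2 and 3 of untreated αTC1-6 of 24 h, and all 5 in βTC1. Values under that setting thus set miR-19b against unlike mates.

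No member passed the threshold in the main fits, so the tested differences whose direction turned had all missed it. With cytokines at 24 h, miR-17 was -0.13 without normalization, -0.032 with U6 and snoRNA as reference and -0.11 to 0.36 without a replicate. MiR-19a was -1.88 and miR-20a -0.16 with the non-normalized table. MiR-92a was 0.017 with median centring and -0.53 to 0.014 without a replicate. At 48 h, median centring gave 0.42 for miR-17, 0.43 for miR-18a and 0.30 for miR-92a. Leaving out wells under 12 cycles gave 11.02 for miR-18a and -3.68 for miR-19a. Leaving out a replicate gave -0.62 to 0.39 for miR-17, -6.13 to 11.02 for miR-18a, -3.68 to 13.04 for miR-19a and -0.21 to 2.34 for miR-20a. MiR-92a* was 1.02 with undetermined wells missing. Over time, miR-17 ran from -0.23 to 0.78 without a replicate, miR-20a was -0.78 with the non-normalized table and -0.75 with undetermined wells missing, and miR-92a was 0.29 with U6 and snoRNA as reference. Without a test, the line difference of miR-92a*, -1.06, was 1.71 with the 48 h controls and ran from -3.05 to 1.29 without a replicate. The line differences of the guide strands kept their direction under every alternative that gave one. With undetermined wells missing, miR-18a had no αTC1-6 value at 24 h. In the non-normalized table its -0.52 rested on αTC1-6 replicate 3 (ΔCt 13.02), while replicates 1 and 2 (2.67 and 4.62) lay above all βTC1 samples.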
